A study of Mus musculus with 3 samples.

Results

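The nuclear receptor genes Esrrb, Nr5a2, Nr0b1, Nr6a1, Nr2f2, Rarg and Rxra were described in mouse epiblast stem cells (EpiSC) and embryonic stem cells (ESC). They were taken by gene symbol, with no threshold on measured values, and are 7 of 16593 gene symbols on an Illumina bead array, with 13 probes in all. RNA of 3 lines was measured, with 1 array per line: E3 (EpiSC, hybrid background), T9 (EpiSC, 129 background) and OG2 (ESC, hybrid background). E3 and T9 grew on inactivated CF1 mouse embryonic fibroblasts with 5 ng/ml FGF2 and were collected with collagenase IV. OG2 was kept on gelatin with LIF (1000 U) and inhibitors of MEK (PD0325901, 1 uM) and of GSK3 (CHIR99021, 3 uM), and was harvested on the dish. All 3 lines were kept in KSR medium. Cell type, medium, feeders and harvest cannot be told apart, and neither can line and genetic background between E3 and T9.

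Nuclear receptors are transcription factors that bind short DNA motifs built around AGGTCA, and many are switched by a small lipophilic ligand. Those without a known natural ligand at the time of their discovery were named orphans. Esrrb, Nr5a2, Nr0b1, Nr6a1 and Nr2f2 belong to these, whereas Rarg and Rxra encode receptors for retinoids. In mouse ESC, Esrrb is a factor of the naive pluripotency network, Nr5a2 binds regulatory DNA of the pluripotency gene Pou5f1, and Nr0b1 is a corepressor without the usual DNA-binding domain that interacts with Nr5a2. Nr6a1 and Nr2f2 are known as repressors of Pou5f1 during differentiation, and retinoic acid acts through RAR and RXR pairs to drive differentiation.

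The results turn on Esrrb and Nr5a2, so the DNA just before each of their annotated starts is shown, from RefSeq on GRCm38.p6 (all 7 genes matched, with 12 starts). Each window is the 250 bases before a start, 5′ to 3′ on the strand of the gene, and capitals mark AGGTCA or its reverse complement. Esrrb lies on chromosome 12 (86361117 to 86521628) and Nr5a2 on chromosome 1 (136842562 to 136960448).
Esrrb, upstream start, plus strand, chr12:86360867-86361116: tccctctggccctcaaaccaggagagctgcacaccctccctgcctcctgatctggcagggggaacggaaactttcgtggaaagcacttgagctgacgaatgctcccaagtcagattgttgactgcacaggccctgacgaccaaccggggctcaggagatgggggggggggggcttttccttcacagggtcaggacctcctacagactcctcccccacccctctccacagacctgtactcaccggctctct
Esrrb, downstream start, plus strand, chr12:86421394-86421643: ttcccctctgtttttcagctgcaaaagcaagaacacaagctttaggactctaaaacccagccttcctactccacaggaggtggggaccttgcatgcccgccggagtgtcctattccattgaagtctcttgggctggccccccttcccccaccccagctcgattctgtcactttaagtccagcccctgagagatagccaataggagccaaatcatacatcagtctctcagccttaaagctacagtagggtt
Nr5a2, upstream start, minus strand, chr1:136960449-136960698: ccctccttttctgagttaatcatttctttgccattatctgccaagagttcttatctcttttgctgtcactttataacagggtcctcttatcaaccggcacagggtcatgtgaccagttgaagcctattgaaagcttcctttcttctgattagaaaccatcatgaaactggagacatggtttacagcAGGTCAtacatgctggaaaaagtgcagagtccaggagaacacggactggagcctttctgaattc
Nr5a2, downstream start, minus strand, chr1:136953631-136953880: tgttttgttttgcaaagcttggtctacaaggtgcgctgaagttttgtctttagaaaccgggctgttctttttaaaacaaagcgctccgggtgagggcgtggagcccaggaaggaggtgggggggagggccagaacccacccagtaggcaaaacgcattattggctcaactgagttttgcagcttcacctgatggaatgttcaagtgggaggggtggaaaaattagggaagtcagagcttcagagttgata

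On either strand AGGTCA was found in 5 of the 12 windows, against 14.0% of 32851 windows of the same length before RefSeq starts. Of the 4 printed, the upstream start of Nr5a2 held it, 64 bases before the start. One window each of Rxra, Nr6a1, Rarg and Nr0b1 held it too. The longer AAGGTCA, which contains AGGTCA, was found in a window of Rxra and a window of Nr6a1, against 4.08% of all windows. The form TCAAGGTCA, bound by both Esrrb and Nr5a2 and containing the shorter ones, was found in 0 of the 12 windows and in 0.387% of all. These matches are letters in short windows and say nothing of binding.

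Between 10768 and 11171 of 25697 probes were above background per array (detection p under 0.01). The bead standard error, the error within an array, had a median between 4.17% and 4.36% of the signal. Of 7 primed markers on the array, all 7 were detected in E3 and in T9, and 5 in OG2. Of 15 naive network genes, 11 were detected in E3 and 10 in T9, compared with 14 in OG2. Of 14 fibroblast markers on the array, 4 were above background in E3, 7 in T9 and 8 in OG2, with summed background-corrected intensities of 575, 883 and 3231. Acta2, which encodes smooth muscle actin, made up 135 of this sum in E3, 637 in T9 and 2570.5 in OG2, and without it the sums were 440.0, 246 and 661. The collagen crosslinking enzyme gene Lox was above background in OG2 alone and passed the test as at least 11.5-fold lower in EpiSC (limma adjusted p = 0.0342). Lox entered the test through OG2, so the detection filter fixed its direction. Thy1 went the other way, at 7.77 in E3 and 5.74 in T9, compared with 5.20 in OG2 (normalized log2 intensity). Of 9 fibroblast genes tested, 3 had an EpiSC minus ESC difference above 0 and 6 below. Col1a2, Col3a1, Postn, Pdgfrb and S100a4 were not above background on any array. The part of other cell types in the differences described here was not tested, and in bulk RNA fewer cells of a type and less RNA per cell cannot be told apart.

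How the receptors differ between the primed and the naive state was read from E3 and T9 together, set against OG2. Esrrb, the estrogen-related receptor of the naive network, was bright in OG2 and close to background in both EpiSC lines. Its single probe (ILMN_1228497) gave a signal of 110.2 ± 3.79 in E3 and 157 ± 5.76 in T9, compared with 5635 ± 221 in OG2 (bead SE, signal not background-subtracted). It was nevertheless above background in all 3 lines. After background correction and normalization the probe stood at 5.46 in E3 and 6.46 in T9, compared with 12.54 in OG2 (normalized log2 intensity). In the test with limma, Esrrb fell by 6.58 ± 0.50 log2 units (SE, from 2 arrays of EpiSC and 1 of ESC), or 95.8-fold, with an adjusted p of 0.0342. Here and below, the SE of a limma difference is moderated toward the spread of all tested probes. Line by line, the level was 135-fold lower in E3 than in OG2 and 67.9-fold lower in T9 than in OG2. The call was lost without a filter on detection (adjusted p = 0.125) and on the authors' processed values (adjusted p = 0.160), settings under which 0 probes of the whole array passed. Across all 8 other settings that were tested, the adjusted p lay between 0.0146 and 0.160.

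Esrrb also differed between the EpiSC lines, with 1 array each and so no test. The level was 1.99-fold lower in E3 than in T9 (log2 difference between -1.29 and -0.48 over 5 other settings), and the signals of the lines lay further apart than their bead standard errors. The related receptor Esrra, which controls genes of oxidative metabolism, had signals above background in all lines. It stood at 7.16 in E3 and 6.15 in T9, compared with 6.52 in OG2, so that the EpiSC lines lay on both sides of ESC (limma difference 0.13 ± 0.50, adjusted p = 0.889). Esrrg, the third member of this subfamily, was not above background on any array.

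Nr5a2, also known as Lrh-1, separated the EpiSC lines from each other. Its brightest probe (ILMN_2634389) gave 80.3 ± 2.44 in E3, where it was not above background, and 476 ± 13.4 in T9, compared with 391 ± 18.6 in OG2. A dimmer probe (ILMN_2813203) had the same order of detection, with 80.3 ± 3.25 in E3 and 126 ± 4.95 in T9, compared with 138 ± 5.34 in OG2. T9 and OG2 lay close together on both probes, and E3 lay at background. The remaining probe (ILMN_2751680) was above background in OG2 alone, at 90.2 ± 2.76 in E3 and 82.8 ± 2.16 in T9, compared with 94.3 ± 3.42 in OG2. It thus went against the other probes in T9, although the platform table assigns all 3 to the same transcript. Which transcript forms or sequence variants each probe reads was not tested.

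For the brightest Nr5a2 probe, levels were at least 13.7-fold lower in E3 than in T9 and at least 11.7-fold lower in E3 than in OG2. These bounds hold for the normalization used: the normalized E3 minus T9 log2 difference, -4.42 with E3 at background, lay between -5.81 and -2.55 over 5 other settings. The corresponding bounds on the dimmer probe were 1.97-fold and 2.60-fold. In the test of both EpiSC lines against ESC the brightest probe gave -1.98 ± 1.94 (limma adjusted p = 0.573), the dimmer one -1.21 ± 0.75 (adjusted p = 0.396) and the third -0.48 ± 0.28 (adjusted p = 0.377). None of these passed, and for the brightest probe the standard error was nearly as large as the difference itself. Its sign turned with the line left out, at 0.23 without E3 and -4.19 without T9. The third probe entered the test through OG2 alone, so the detection filter fixed its direction. The related gene Nr5a1 (steroidogenic factor) was above background in E3 alone on 1 of its probes, at a level of 4.91 in E3 and 4.31 in T9, compared with 4.17 in OG2.

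**Figure D1:**
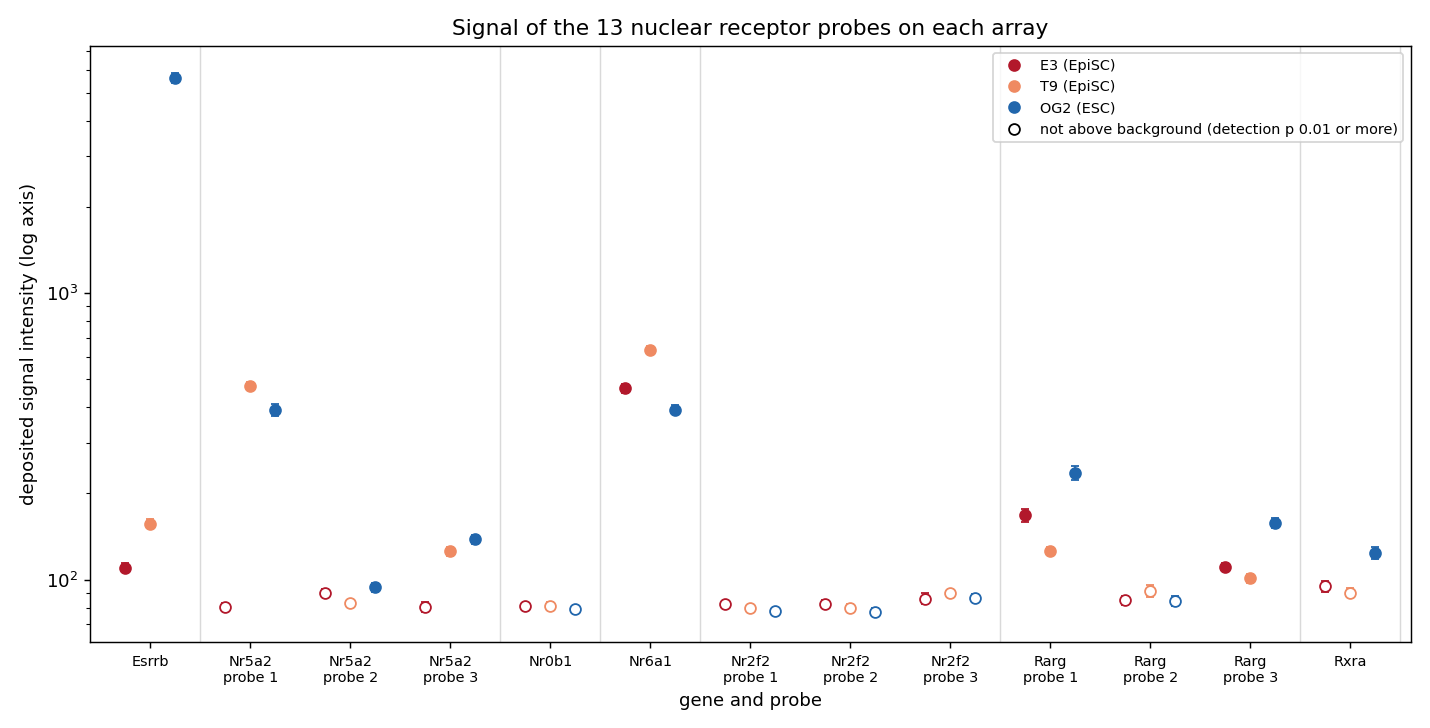
Deposited signal intensity (log axis) of the 13 probes of the 7 receptor genes on the arrays of E3, T9 (EpiSC) and OG2 (ESC); points are single arrays, bars bead standard errors, and open points were not above background. Esrrb is high in OG2 only, Nr5a2 probes 1 and 3 are high in T9 and OG2, and all points of Nr0b1 and Nr2f2 are open.

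Nr0b1 (Dax1, chrX:86191775-86195947), known as a partner of Nr5a2 in ESC, was not measured above background in any line. Its only probe gave 80.8 ± 2.14 in E3 and 81.1 ± 2.30 in T9, compared with 78.8 ± 2.45 in OG2, with detection p of 0.639, 0.503 and 0.650. The 3 values lay within about a bead standard error of each other. The gene was therefore not tested, and the values give no order of the lines. Whether the probe reports the transcript was not tested.

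Nr6a1 (germ cell nuclear factor, chr2:38723369-38926461) was above background in every line. Its signal was 465 ± 17.4 in E3 and 633 ± 21.7 in T9, compared with 392 ± 14.2 in OG2. Both EpiSC values were above the ESC value, T9 the highest. The normalized log2 difference was 0.44 ± 0.33 (1.36-fold, limma adjusted p = 0.474), and the E3 and T9 levels were 0.50 apart. The difference between the states thus was no larger than that between the EpiSC lines. Pou5f1, the gene that Nr6a1 is known to repress, differed by -0.01 ± 0.27 and 0.03 ± 0.27 on its 2 probes (limma adjusted p = 0.989 and 0.952).

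Nr2f2 (COUP-TFII, chr7:70351946-70366746), a receptor of mesenchymal and endothelial cells, was at background in all 3 lines. Its 3 probes gave signals between 79.6 and 89.6 in the EpiSC lines, against 77.4 to 86.3 in OG2, with no detection p under 0.01. The lowest was 0.0363, for the third probe in T9. Its paralog Nr2f1 (COUP-TFI) was detected in T9 alone, at a level of 4.29 in E3 and 6.41 in T9, compared with 4.65 in OG2. That placed T9 at least 2.90-fold above OG2, and E3 at least 2.92-fold below T9. Over both EpiSC lines the Nr2f1 difference was 0.70 ± 0.95 (limma adjusted p = 0.682). The more distant family member Nr2f6 was detected in all lines on both probes. Its probe with the higher mean level lay at 8.02 in E3 and 8.43 in T9, compared with 7.58 in OG2, and the other at 5.94 and 6.97, against 6.25.

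The retinoid receptors Rarg and Rxra had lower values in both EpiSC lines than in ESC. For Rarg (retinoic acid receptor gamma, chr15:102234938-102257522), the first probe gave 168 ± 8.27 in E3 and 126 ± 3.75 in T9, compared with 236 ± 12.8 in OG2. The third probe gave 111 ± 3.73 in E3 and 101 ± 3.84 in T9, compared with 158 ± 6.17 in OG2. Both probes put OG2 highest and T9 lowest. Their differences were -1.18 ± 0.44 (2.26-fold, limma adjusted p = 0.225) and -1.31 ± 0.30 (2.48-fold, adjusted p = 0.123), and neither passed the threshold. The second Rarg probe was not above background anywhere, at 84.9 ± 2.99 in E3 and 91.4 ± 4.16 in T9, compared with 84.2 ± 3.33 in OG2.

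Rxra (retinoid X receptor alpha, chr2:27676445-27763319), the common partner of other receptors, gave 94.9 ± 4.15 in E3 and 90.3 ± 3.09 in T9, compared with 124 ± 5.86 in OG2. It was above background in OG2 alone, though E3 missed the detection threshold narrowly with a detection p of 0.0113. The level was at least 2.13-fold lower in EpiSC (limma difference -1.19 ± 0.27, adjusted p = 0.118). The detection filter had fixed this direction, since the probe entered the test through OG2. Neither of the other RXR genes passed, and their probes did not follow Rxra. Rxrg was detected in both EpiSC lines only, at 5.23 in E3 and 5.92 in T9, compared with 4.22 in OG2 (at least 1.63-fold higher, adjusted p = 0.164). The brighter Rxrb probe lay at 8.70 in E3 and 8.77 in T9, compared with 7.97 in OG2 (0.77 ± 0.25, adjusted p = 0.192). The dimmer Rxrb probe differed by -0.04 ± 0.32. Of the other retinoic acid receptors, Rarb was detected in E3 alone and Rara in T9 and OG2. Rara lay at 4.80 in E3 and 5.11 in T9, compared with 4.88 in OG2.

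Of the 13 probes, 8 from 5 genes were above background on at least 1 array and entered the test, as did 12603 of all 25697 probes. Of these 8, 1 passed (Esrrb) and it was lower in EpiSC, where 1.15% of all tested probes passed and 0.865% passed as lower. An unadjusted p under 0.05 was reached by Esrrb, Rxra and the third Rarg probe, against 23.2% of all tested probes. By size alone, 5 of the 8 were at least 2-fold lower in E3 than in OG2 (9.12% of all) and 4 of the 8 in T9 (9.28% of all). Both lines share the OG2 array. At least 2-fold lower in both lines were Esrrb, the third Rarg probe and Rxra, against 6.64% of all tested probes. Between E3 and T9, 2 of the 8 were at least 2-fold apart, both from Nr5a2 and both lower in E3 (3.02% of all were lower and 5.32% differed in either direction). The brightest Nr5a2 probe alone had E3 and T9 on opposite sides of OG2 and at least 2-fold apart, against 2.21% of all. The genes were picked with such results known, so these shares only describe them.

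**Figure D2:**
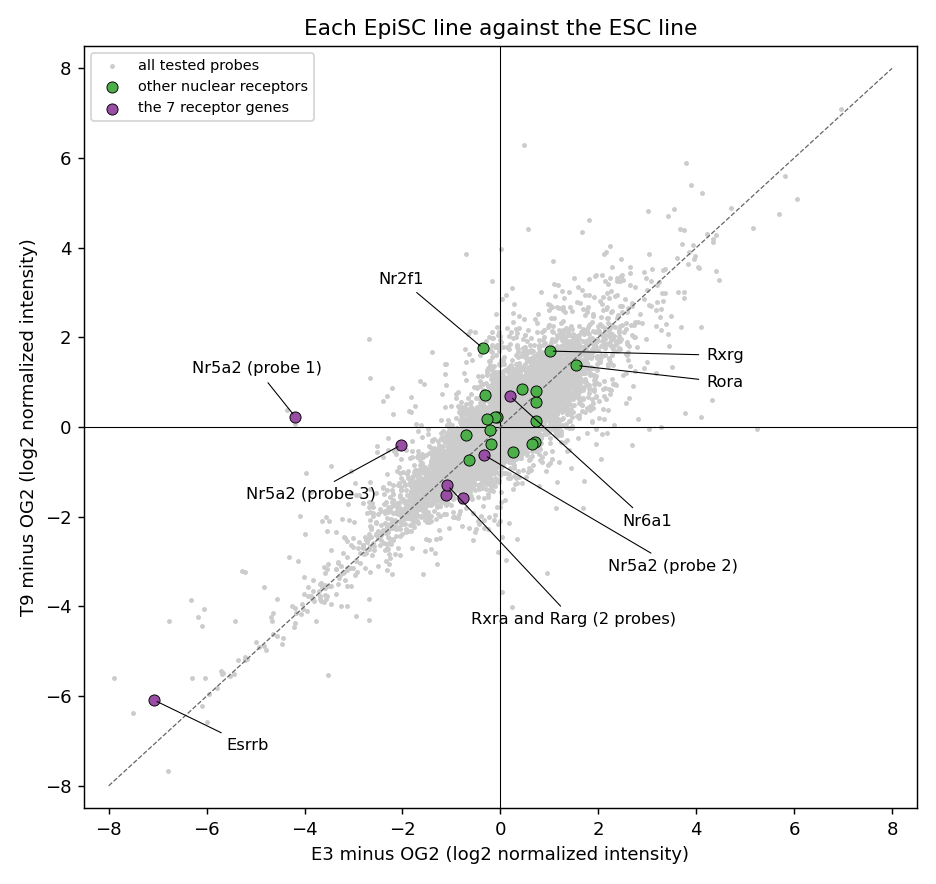
Log2 difference of each EpiSC line from the ESC line for all 12603 tested probes (grey), 18 probes of other nuclear receptors (green) and 8 of the 7 receptor genes (purple), E3 on the horizontal and T9 on the vertical axis. Esrrb lies near the dashed line of equal difference at -7.08 for E3 and -6.08 for T9, whereas Nr5a2 probe 1, not above background in E3, lies at -4.19 for E3 and 0.23 for T9; both axes share the OG2 array.

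The rest of the superfamily held 42 further genes, 37 of them on the array with 57 probes. Counting all 49 genes, 44 had a probe, 19 were above background on at least 1 array and 25 on none. Over the whole array, 8688 of 16593 gene symbols were above background on at least 1 array. By line, 13 of the 44 receptor genes were detected in E3 and 15 in T9, compared with 14 in OG2, and 8 in every line. Those not detected anywhere included the glucocorticoid receptor gene Nr3c1, the estrogen receptor genes Esr1 and Esr2, the PPAR genes Ppara, Ppard and Pparg, and the immediate-early receptor genes Nr4a1, Nr4a2 and Nr4a3. Detected in every line beside Esrrb, Nr6a1 and Rarg were Esrra, Rxrb, Nr2c1, Nr2f6 and the clock repressor gene Nr1d1.

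None of the 14 measured genes of this remainder passed the test of EpiSC against ESC with limma (0 of 14, with 3 higher and 0 lower at an unadjusted p under 0.05). Of all 8688 tested genes, 26 passed as higher and 80 as lower, and 1040 were higher and 1060 lower at an unadjusted p under 0.05. With so few genes these counts only describe the remainder. The median difference of the 14 was 0.16, against 0.05 over all 8688 tested genes. For the 5 measured receptors among the 7, the median of -1.19 was the value of Rxra, whose direction the detection filter had fixed. The lowest adjusted p among the 14 genes was that of Rora, a receptor of circadian and cerebellar function, with a difference of 1.46 ± 0.26 (adjusted p = 0.0907). It was above background in both EpiSC lines only, at 5.84 in E3 and 5.67 in T9, compared with 4.30 in OG2 (at least 1.85-fold higher). The other Rora probe was not above background on any array. The detection filter fixed the direction of Rora and of Rxrg, since both entered the test through the EpiSC lines alone. The vitamin D receptor gene Vdr had probes that disagreed, one detected in OG2 alone and one in E3 alone.

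**Figure D3:**
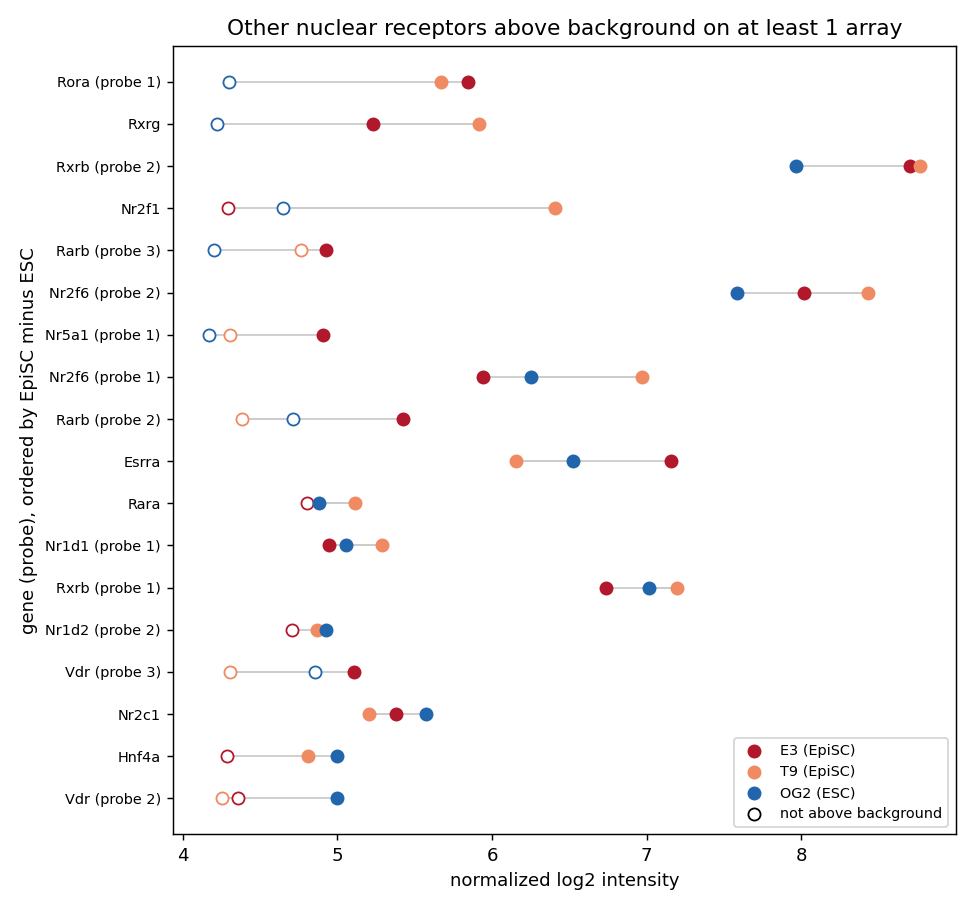
Normalized log2 intensity of the 18 tested probes of other nuclear receptors, ordered by EpiSC minus ESC, with 1 point per array and open points not above background. Rora and Rxrg are filled in E3 and T9 and open in OG2, and Nr2f1 is filled in T9 only, at 6.41.

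Coregulators, through which the receptors act on chromatin and polymerase, had differences on both sides of 0. Of 13 measured of 23 listed genes, 0 passed with limma, and 1 was higher and 2 lower at an unadjusted p under 0.05, which 23.2% of all tested probes reached. The median difference was -0.12. The arginine methyltransferase gene Carm1 had the highest, 1.17 ± 0.27 (adjusted p = 0.121), at 8.65 in E3 and 8.43 in T9, compared with 7.37 in OG2. The corepressor subunit gene Tbl1xr1 (at least 1.88-fold lower, adjusted p = 0.0991) and the coactivator gene Ncoa1 (at least 1.90-fold lower, adjusted p = 0.125) were above background in OG2 alone, so the filter fixed their direction. Ncoa3, a coactivator of Esrrb in ESC, was not above background in any line, and the histone acetyltransferase gene Ep300 differed by 0.04 ± 0.26.

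Of 18 listed retinoid handling genes, 16 were on the array and 5 were measured. With limma 0 of these passed, where 1.15% of all tested probes did. At an unadjusted p under 0.05, which 23.2% of all tested probes reached, 1 was higher and 0 lower. Crabp2 entered the test through both EpiSC lines alone, so that the filter fixed its direction. Stra6 and Cyp26a1 entered it through T9 alone. For these genes the filter fixed T9 above OG2, but not the sign of the EpiSC mean against OG2. The retinol dehydrogenase gene Rdh11, detected in every line, lay at 8.54 in E3 and 8.11 in T9, compared with 6.29 in OG2 (2.04 ± 0.31, adjusted p = 0.0797). The binding protein gene Crabp2 lay at 5.24 in E3 and 6.81 in T9, compared with 4.74 in OG2, where it was not above background. The related Crabp1 was detected in every line, at 5.64 in E3 and 7.06 in T9, compared with 5.62 in OG2. The retinoic acid hydroxylase gene Cyp26a1 lay at 4.76 in E3 and 5.97 in T9, compared with 4.25 in OG2. The 10 measured retinoic acid targets also gave 0 calls with limma (0 higher and 1 lower unadjusted). Crabp2, Cyp26a1, Rarb and Nr2f1 are among these targets and were already counted in the lists above. The lower target was Cdx1, above background in OG2 alone, so the filter fixed its direction. Hoxb1 was detected in T9 alone on both of its probes, at 4.18 in E3 and 6.35 in T9, compared with 4.22 in OG2, for the probe with the higher mean. Hoxb1 thus entered the test through T9 alone.

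Among 14 measured partners of Esrrb in the naive network, 4 fell with limma (Zfp42, Tbx3, Klf4 and Tcl1) and 0 rose, where 0.865% of all tested probes fell. Zfp42 and Klf4 were above background in every line, whereas Tbx3, Tcl1 and Prdm14 were so in OG2 alone and could only be lower. By the probe with the highest mean level all 14 differences were below 0, as were those of 4093 of 8688 tested genes, with a median of -2.33. Pou5f1 was among them at -0.01 with another probe at 0.03, and Stat3 at -1.06 with another at 0.04. For 10 of the 14 the level was lower in E3 than in T9, as for Esrrb, against 49.3% of all tested genes. The Krüppel-like factor genes Klf2 (7.79 in E3 and 9.41 in T9, compared with 11.78 in OG2) and Klf5 (7.55 in E3 and 8.71 in T9, compared with 11.69 in OG2) had this order. Tcl1 and Prdm14, counted among the 10, were not above background in E3 or T9, so their order there is not known. Sall4 was counted by its brightest probe, at -0.22 for E3 minus T9, whereas its other probes lay at 1.85 and 0.44. Klf4 was near background in both EpiSC lines, at 5.21 in E3 and 5.38 in T9, compared with 9.03 in OG2. None of the 14 was above background in T9 and OG2 but not in E3, as Nr5a2 was, and Fgf4 was above background in E3 and OG2 but not in T9.

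The genes most like Esrrb over the 3 arrays, by the Euclidean distance between log2 levels centred on their mean, were Rhox5 (distance 0.31), Zfp42 (0.55), Ooep (0.73) and Laptm5 (0.93), out of 8683 tested genes. Each was higher in T9 than in E3 and far higher in OG2. Laptm5, a lysosomal membrane protein gene known from blood cells, lay at 4.79 in E3 and 7.09 in T9, compared with 12.68 in OG2 (adjusted p = 0.0789). Zfp42 (Rex1) lay at 5.13 in E3 and 5.84 in T9, compared with 11.43 in OG2.

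The genes most like Nr5a2, by its brightest probe, were Gbx2 (distance 0.14), Erdr1 (1.08), Lgals3 (1.30) and Nckap1l (1.33). The homeobox gene Gbx2 lay at 5.05 in E3 and 9.31 in T9, compared with 9.25 in OG2, so that both genes had T9 and OG2 close together and E3 low. The next gene was several times further away than Gbx2. The galectin gene Lgals3 lay at 5.95 in E3 and 8.56 in T9, compared with 9.42 in OG2. Nr5a2, Laptm5 and Nckap1l were not above background in E3, so their distances depend on a background value. With 3 arrays many genes can share an order, and the distances only describe these arrays. Nr0b1 had no tested probe and so no nearest genes.

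**Figure D4:**
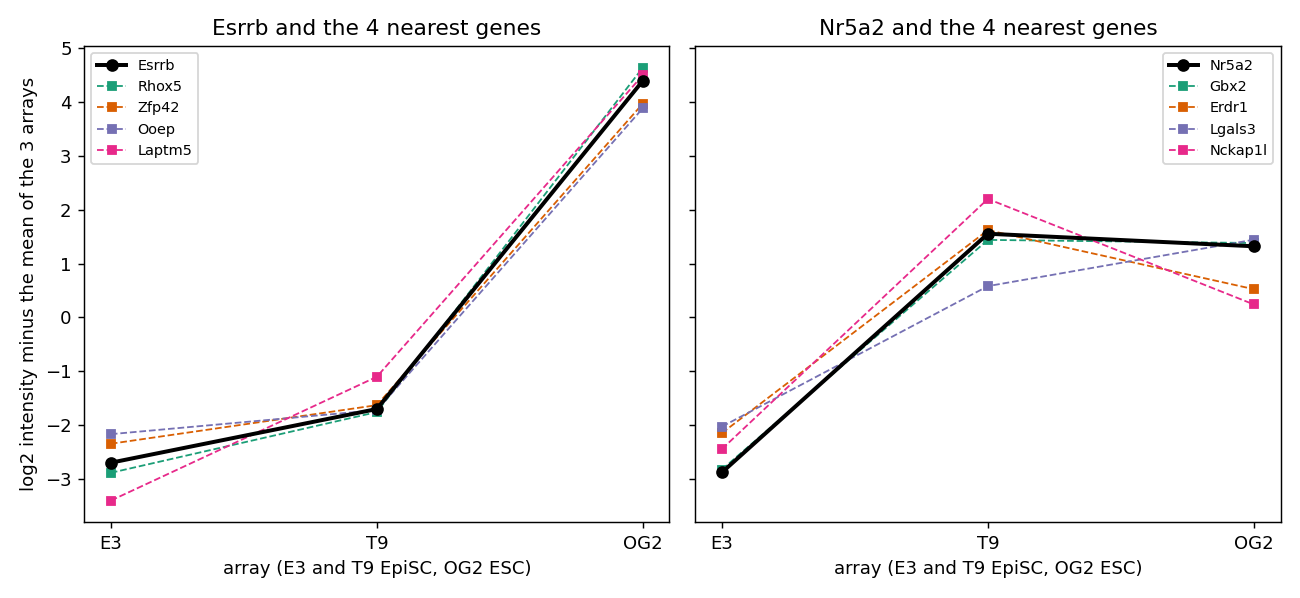
Log2 intensity minus the mean of the 3 arrays for Esrrb (left, black) and Nr5a2 by its brightest probe (right, black), each with its 4 nearest genes (dashed), on E3, T9 and OG2. The Esrrb group is low in E3 and T9 and high in OG2, and Gbx2 runs along Nr5a2, at distances of 0.31 for Rhox5 and 0.14 for Gbx2.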

How the data were processed

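Total RNA (400 ng, 12 h of in vitro transcription, per the labels' protocols) of E3, T9 and OG2 was hybridised to 1 bead array per line, which were grouped by sample title. Nothing says that E3 and T9 stand for more than 1 culture each. The p-values rest on the spread between these 2 lines, which eBayes moderates toward the spread of all tested probes. The number of arrays limits the precision. The authors deposited, per the file headers, a linear signal intensity, its bead standard error and a detection p-value for each probe. Background had not been subtracted, judged from lowest signals of 66.7 to 70.5, and no header or label records a normalization. BeadStudio is named in the submitters' processing notes, with a version and build not given in the sources used here. The authors' processed intensity table served as an alternative, with blanks set to each column's lowest value (7 at the lowest). It is on a linear scale, the medians of its filled values are 81.0 (E3), 80.8 (T9) and 80.8 (OG2), and its normalization and centring are unknown.

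Signals were background-corrected with nec of limma 3.58.1 (R 4.3.3; offset 16, which understates folds of dim genes), taken to log2 and quantile normalized. The 12603 probes above background (detection p under 0.01 on 1 array or more) were fitted with lmFit and eBayes, two-sided, with Benjamini-Hochberg adjustment over all of them and a threshold of 0.05. Where a side was not above background, the fold is a bound, with that side at the lowest detected level of its array or its own, whichever was higher. Single-array differences have a size rule of 2-fold and no test. Of 25697 probes, 23978 had 1 symbol in the platform table, 0 several and 1719 none. List genes were represented by their tested probe with the highest mean level. Members, lists (nuclear receptors, coregulators, retinoid handling, retinoic acid targets, naive partners, primed, fibroblast, trophoblast, extraembryonic endoderm and neural markers) and tests were chosen with earlier results of these data known. All probes of the 7 genes were described. Other list genes could be named when past the threshold or among the largest differences shared by both EpiSC lines, and the 4 nearest patterns were taken by distance. Those named for a pattern of detection or a difference between E3 and T9, such as Vdr, Rara, Crabp1, Acta2, Thy1, Hoxb1, Cdx1, Sall4, Fgf4, Cdx2 and Foxa2, were chosen after their values were seen.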

Additional observations from a re-analysis of the deposited data

Results flagged for a closer look

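For 5 probes of nuclear receptors, the normalized levels of E3 and T9 lay on opposite sides of OG2 and at least 2-fold apart, which 2.21% of all tested probes did. With 1 array per line these differences were not tested. Nr2f6 (its dimmer probe) differed by -1.03 on the log2 scale for E3 minus T9 and Esrra by 1.01, with all 3 lines above background. The other 3 rest on a background value. Nr5a2 (brightest probe) differed by -4.42, with E3 not above background, and is known only as at least 13.7-fold lower in E3. Nr2f1 differed by -2.12 (at least 2.92-fold lower in E3) and Rarb (ILMN_2617194) by 1.04 (at least 1.56-fold higher in E3). Nr2f1 was not above background in E3 or OG2 and Rarb not in T9 or OG2, so for these genes the order of the dim line and OG2 is not known.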

How the results depend on the processing

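The 8 alternatives for the test were median scaling, cyclic loess, no background correction, an offset of 50, detection on all 3 arrays, no detection filter, a detection p under 0.05, and the authors' processed values. The count of receptor probes past the threshold was 1 (Esrrb) in 6 of them and 0 with no detection filter and with the authors' processed values. The count for the other receptors was 0 in all 8. Over the whole array the calls were 145 (24.8% higher), against 378 with median scaling (36.5% higher), 344 with cyclic loess (35.5%), 351 with detection p under 0.05 (36.2%), 93 with detection on all arrays (37.6%), 183 without background correction (29.0%), 98 with the offset of 50 (21.4%) and 0 in the 2 settings named. Under these 8 no tested probe of the 7 genes changed sign. The Esrrb difference ranged from -6.98 to -5.54, that of the brightest Nr5a2 probe from -2.66 to -1.08, that of Rxra from -2.15 to -0.45, those of the brighter and the dimmer tested Rarg probe from -1.33 to -0.74 and from -1.75 to -0.63, and that of Nr6a1 from 0.38 to 0.46. E3 minus T9 for the brightest Nr5a2 probe ranged from -5.81 to -2.55 over 5 settings. Leaving out E3 or T9 leaves 1 array a side and so a value with no test. The difference of the brightest Nr5a2 probe was then 0.23 without E3 and -4.19 without T9, a change of sign. That of the dimmer probe was -0.40 and -2.03, that of the remaining Nr5a2 probe -0.62 and -0.33, and that of Nr6a1 0.70 and 0.19. The values for Esrrb were -6.08 and -7.08, for Rxra -1.30 and -1.08, and for Rarg -1.59 and -0.76 (brighter probe) and -1.51 and -1.11 (dimmer). No paired analysis was possible because ESC has a single array and the labels give no replicate numbers. The cause of these shifts was not tested. Signal over background limits Rxra, Rarg and the dimmer Nr5a2 probes.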

Other observations

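In EpiSC, 2 of 6 trophoblast genes tested with limma fell, where 80 of 8688 tested genes did: Rhox9 by at least 13.5-fold (adjusted p = 0.0317) and Rhox6 by at least 4.78-fold (adjusted p = 0.0454). Both were above background in OG2 alone, so the filter fixed their direction. Esrrb is also known as a factor of trophoblast stem cells. Of the 6 trophoblast differences, 1 was above 0 and 5 were below. Tfap2c was above background in every line on its brightest probe, at 6.63 in E3 and 9.05 in T9, compared with 10.50 in OG2. It did not pass (-2.67 ± 1.08, limma adjusted p = 0.247). Neither Cdx2 (0.21 ± 0.65) nor Gata3 (at least 1.53-fold lower, adjusted p = 0.115) passed, and Cdx2 was detected in T9 alone. Gata3 was above background in OG2 alone, so the filter fixed its direction too. Of 5 measured extraembryonic endoderm genes, 0 passed with limma, with 3 differences above 0 and 2 below. At an unadjusted p under 0.05, which 23.2% of all tested probes reached, 0 were higher and 1 lower. The lower gene was Lama1, at 4.89 in E3 and 5.30 in T9, compared with 7.53 in OG2 (adjusted p = 0.0638). Gata6 differed by 0.04 ± 0.26. Foxa2 and Sox17 were detected in T9 alone and so entered the test through T9. Of 2 measured neural genes, 0 passed (1 higher and 1 lower unadjusted), with Nes at 1.74 ± 0.33 (adjusted p = 0.0938).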
